A study of Mus musculus with 40 samples.

Results

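Methylation of 10 imprinted loci (Peg3, Snrpn, Kcnq1ot1, Igf2r, H19, Igf2, Mest, Grb10, Zrsr1 and Impact) was examined in mouse liver. The members were every measured CpG cytosine in the gene body or within 5 kb of it, 202 of the 400298 cytosines of the series. For each locus, cytosines with mean methylation from 35% to 65% over the mice were identified, and their stability between animals and diet groups was described. The data came from reduced representation bisulfite sequencing (RRBS), which reads single CpGs close to the cuts of the enzyme MspI, in the livers of 40 male C57BL/6 mice of 9 weeks (C57BL/6J in the study's methods). All animals were born from dams fed a high fat (HF) or a low fat (LF) diet before and throughout pregnancy and until weaning, and were then fed HF or LF themselves. The 4 groups of 10 mice are written with the maternal diet first, as LF-LF, LF-HF, HF-LF and HF-HF. Whole liver was used, so each value is an average over liver cells of all types and over both parental alleles, which these counts do not separate. By the study's methods the males of a cage were split between both post-weaning diets, so a litter has 1 maternal diet and can have both later diets. The labels do not name the litter of a mouse, so all tests treat the mice as independent, and effects of dam or litter and of maternal diet cannot be told apart.

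At an imprinted gene the copy from the mother and the copy from the father are marked differently by DNA methylation, and only the copy from 1 parent is transcribed. The mark is set in the egg or the sperm at a differentially methylated region (DMR), is kept through embryonic life and is present in nearly all adult cells, so that a mixture of both alleles is read at an intermediate level. The DMRs of Peg3, Snrpn, Kcnq1ot1, Airn (inside Igf2r), Mest, Grb10, Zrsr1 and Impact receive their methylation in the egg, and that of H19 and Igf2 in the sperm. The promoter of Igf2r gains methylation later, on the silent copy. Imprinted genes are known for roles in growth and metabolism, which is why their response to maternal nutrition is of interest.

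The sequences around the clusters of intermediately methylated CpGs are shown first, because the density of CpGs and the place of the enzyme cuts decide what RRBS can read at each locus. A cluster was a run of at least 3 such cytosines with gaps of at most 300 bp, and there were 14 in the 10 loci. In the runs given here, which are the plus strand of NCBIM37 (mm9) 5′ to 3′ with 6 bases of padding where the limits allow it, the capitals mark the CpGs that were measured at 35% to 65%. The Kcnq1ot1 cluster (chr7:150481274-150481354), the upstream Igf2r cluster 2 (chr17:12962560-12962650), Igf2r cluster 1 near the Airn start (chr17:12935096-12935143), the 2 Mest clusters (chr6:30682795-30682828 and chr6:30689248-30689340), Grb10 cluster 2 (chr11:11926764-11926890), the upstream part of Zrsr1 cluster 1 (chr11:22871896-22872004), the intronic part of the Snrpn cluster (chr7:67150066-67150121) and the H19 cluster (chr7:149764064-149764116) read as follows.
Kcnq1ot1 cluster: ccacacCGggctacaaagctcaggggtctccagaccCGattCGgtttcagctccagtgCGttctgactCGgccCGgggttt
Igf2r cluster 2: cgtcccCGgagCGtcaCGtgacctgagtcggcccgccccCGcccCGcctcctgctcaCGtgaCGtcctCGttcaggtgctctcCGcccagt
Igf2r cluster 1: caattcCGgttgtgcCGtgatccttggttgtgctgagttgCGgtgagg
Mest cluster 1: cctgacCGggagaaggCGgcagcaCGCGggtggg
Mest cluster 2: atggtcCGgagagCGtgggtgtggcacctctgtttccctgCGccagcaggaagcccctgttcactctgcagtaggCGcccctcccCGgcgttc
Grb10 cluster 2: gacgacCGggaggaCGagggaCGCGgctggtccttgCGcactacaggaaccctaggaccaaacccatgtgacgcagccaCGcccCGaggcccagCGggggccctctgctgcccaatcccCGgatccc
Zrsr1 cluster 1: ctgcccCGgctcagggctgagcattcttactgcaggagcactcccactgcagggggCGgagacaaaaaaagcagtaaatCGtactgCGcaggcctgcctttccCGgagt
Snrpn cluster: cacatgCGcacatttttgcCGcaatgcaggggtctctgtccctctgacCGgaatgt
H19 cluster: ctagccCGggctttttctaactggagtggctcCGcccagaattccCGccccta

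Every run held at least 1 CCGG, the site where MspI cuts. All CpGs of the Kcnq1ot1, Igf2r cluster 1, Mest cluster 1, Snrpn, H19 and Zrsr1 runs were measured at intermediate levels, whereas 9 of the 12 CpGs of the Igf2r cluster 2 run, 9 of 11 of the Grb10 cluster 2 run and 5 of 6 of the Mest cluster 2 run were. The hexamer TGCCGC, bound in its methylated form by ZFP57, the zinc finger protein that protects imprints in the embryo, was searched on both strands in windows of 300 bases centred on each cluster. It was present in 6 of the 14 clusters (42.9%), with 4 matches in Grb10 cluster 1, 3 in Igf2r cluster 1, 2 each in the Peg3, Snrpn and Impact clusters and 1 in Mest cluster 1. By comparison, 11.4% of all 1829 clusters of the table and 11.6% of the 32851 RefSeq promoter windows of the same length (GRCm38.p6) held it. Windows of the 10 loci were richer in CpGs, with a median of 17.5 against 9 over all clusters, and among windows with at least 20 CpGs the hexamer was found in 4 of 6 clusters of the 10 loci and in 36.5% of all clusters. A match describes the letters and is not evidence of binding.

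The 10 loci contained 98 cytosines with a mean of 35% to 65%, 48.5% of the 202 measured there, compared with 21147 (5.28%) of the whole table. In a list of further imprinted loci, of which 46 of 47 were found in the annotation, 216 of 995 cytosines had such a mean. The series holds only cytosines with at least 10 reads in at least 33 mice. These were 1.74% of the CpG cytosines that the reference holds in the 10 windows, from 0.612% at Snrpn to 4.95% at Zrsr1. Across the 202 cytosines, 70 had a mean below 10%, 23 had a mean of 90% or more and only 11 lay in the ranges between these and the intermediate class. At the lower limit there was no gap: just outside it lay Igf2r cytosines at 33.8%, 33.1% and 31.3%, and just inside a Mest cytosine at 36.3% and an Igf2 cytosine at 37.5%. At the upper limit the nearest values were an Igf2r cytosine at 63.4% inside and a Grb10 cytosine at 77.5% outside.

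**Figure D1:**
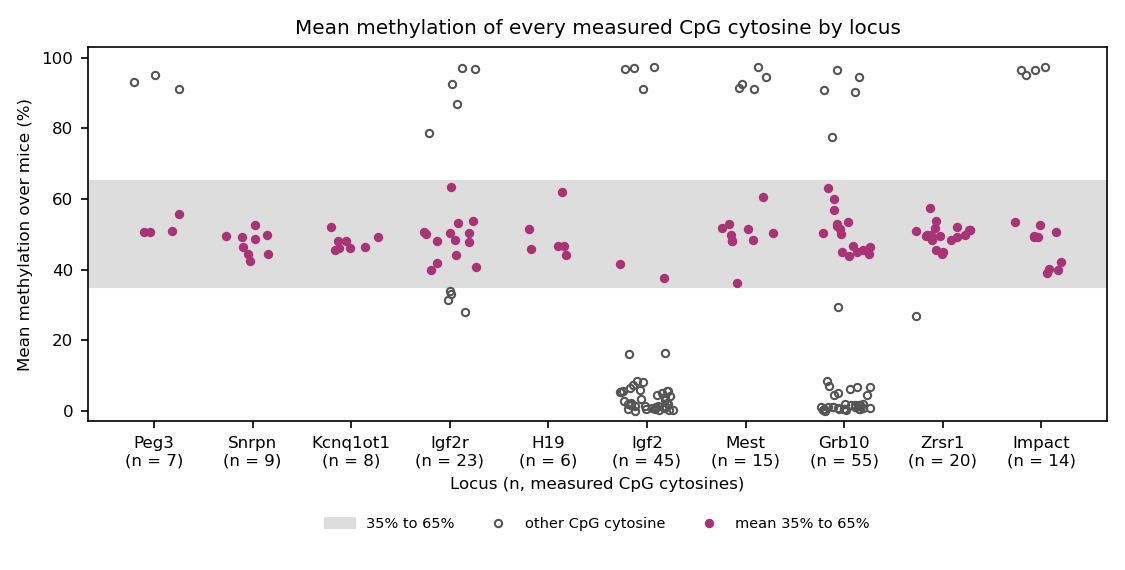
Mean methylation over mice (%) of each of the 202 measured CpG cytosines, by locus, where each point is a cytosine and the grey band spans 35% to 65%. Igf2 and Grb10 hold the cytosines near 0%, and all 9 Snrpn, all 8 Kcnq1ot1 and all 6 H19 cytosines lie in the band.

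Among the loci whose mark is set in the egg, Peg3, a zinc finger protein gene, had 7 measured cytosines. A cluster of 4 in its first exon (UTR, chr7:6682973-6683011, 119 to 157 bp after the transcript start) averaged 51.9%, with the mice between 28.1% and 84.6%. The other 3, in the coding part far downstream, had means of 91.2% to 95.2%. Snrpn, which encodes a splicing protein and marks the Prader-Willi region, had 9 cytosines, all with means between 42.4% and 52.7%. Of these, 6 formed a cluster over an alternative transcript start (chr7:67149939-67150115), at 48.9% on average, and the mice ranged from 27.0% to 88.9%.

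Kcnq1ot1 is the long antisense RNA that silences neighbouring genes in the Kcnq1 domain. Its 8 cytosines (chr7:150481280-150481348) lay 1104 to 1172 bp inside the transcript, in an intron of Kcnq1, and had means of 45.5% to 52.2%. Igf2r, the receptor that removes IGF2, had 2 clusters. Cluster 1 (chr17:12935102-12935136) lay in an Igf2r intron, 925 to 959 bp after the start of Airn, the antisense RNA that silences Igf2r, and averaged 40.8% over 3 cytosines. Cluster 2 (chr17:12962566-12962644), -114 to -36 bp from the Igf2r start and within the Airn transcript, averaged 49.0% over 10 cytosines. Between these clusters, at a transcript start within the gene, 4 cytosines had means of 28.1%, 63.4%, 78.6% and 86.8%, and 3 farther down the gene were at 92.6% to 97.0%. A further 3 cytosines within or beside cluster 2 fell just under the lower limit, at 31.3% to 33.8%.

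Mest, a hydrolase-like gene active in growing mesoderm and fat, had an intronic cluster of 6 cytosines (cluster 2, chr6:30689254-30689334) with an average of 49.8%. A second cluster of 4 (cluster 1, chr6:30682801-30682821), -653 to -633 bp from the nearest transcript start, averaged 49.2%, but its single cytosines ran from 36.3% to 60.5%. Grb10, an adaptor protein that restrains insulin and growth factor signalling, had the most cytosines, 55. Its cluster 1 (chr11:11926188-11926231, in a UTR exon) averaged 46.3% and its cluster 2 (chr11:11926770-11926884, intron) 53.7%, whereas 33 cytosines around another transcript start, upstream of both clusters, had means from 0.0794% to 8.46%. The 4 cytosines far downstream were at 90.2% to 96.6%.

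Zrsr1, an intronless gene lying inside an intron of Commd1, had 19 intermediate cytosines of 20, the largest number among the 10 loci. Cluster 1 (chr11:22871902-22872174) spanned -103 to 169 bp from the RefSeq start and averaged 49.2%. Cluster 2 (chr11:22872845-22872894) averaged 49.9%, and cluster 3 (chr11:22873934-22874253, coding exon) 53.0%.

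Impact, a regulator of translation under amino acid shortage, had a cluster of 10 intronic cytosines (chr18:13131640-13132015) at 46.9% on average, and 4 cytosines farther down the gene with a median of 96.4%.

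Of the pair marked in the sperm, H19, a non-coding RNA gene, had 6 measured cytosines with means from 44.0% to 62.0%, of which 3 formed a cluster at -61 to -22 bp from its start (chr7:149764070-149764109) at 45.8% on average. A single cytosine at -3044 bp from the start had a mean of 45.9%. Igf2, the fetal growth factor gene, had no cluster: 37 of its 45 cytosines had means below 10%, 4 upstream cytosines were at 91.2% to 97.3%, and only 2 single cytosines were intermediate, at 37.5% (position 149843247) and 41.5% (position 149851087).

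The stability of the intermediate cytosines between mice was similar to that of other cytosines of the same level. The standard deviation (SD) between mice within diet groups had a median of 13.1 percentage points over the 98 cytosines and of 12.7 over the 21147 of the whole table. Much of this spread is expected from the number of reads, whose median was 21 in both sets. Binomial sampling of the reads gives a median SD of 11.5 at the 10 loci and 11.1 in the table. The ratio of observed to sampling variance had a median of 1.27 at the 10 loci, 1.23 at the further imprinted loci and 1.32 in the table, and it was below 1 for 14 of the 98 cytosines (14.3%) against 14.7% of all. Thus by the median, at this depth, the mice differed only a little more than the reads alone would give. Single cytosines of the 10 loci had ratios from 0.686 to 2.14.

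The loci were spread over this scale. Kcnq1ot1 had the lowest median ratio, 0.957, at percentile 11.4 of all intermediate cytosines, followed by Zrsr1 (1.15), Peg3 (1.19) and H19 (1.21). Grb10 (1.31), Igf2 (1.34) and Mest (1.38) lay near the middle, and Igf2r (1.46), Snrpn (1.56) and Impact (1.60, percentile 77.1) were at the upper end. This order is a description of a few correlated cytosines per locus and neighbouring loci in it were not tested against each other. By SD alone, the smallest value of all 98 was at Grb10 (position 11926785), with a mean of 52.8% and an SD of 9.67 against 10.8 from sampling, a ratio of 0.799. By the ratio, the lowest was at Impact (position 13131689), with 0.686. The highest by both measures was at Snrpn (position 67149979, ratio 2.14), where the SD was 16.9 against 11.6 from sampling and single mice ranged from 24.2% to 90.9%. Over the 10 loci, the smallest SD of a locus ran from that Grb10 value to 13.2 (Igf2r, position 12944149), and the largest SD of a locus ran from 12.9 (Kcnq1ot1, position 150481280) to that Snrpn value. Next below Snrpn came Grb10 (position 11926188), H19 (position 149767092) and Impact (position 13132015), each at 15.9, and at the H19 cytosine single mice ranged from 0% to 73.9%.

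**Figure D2:**
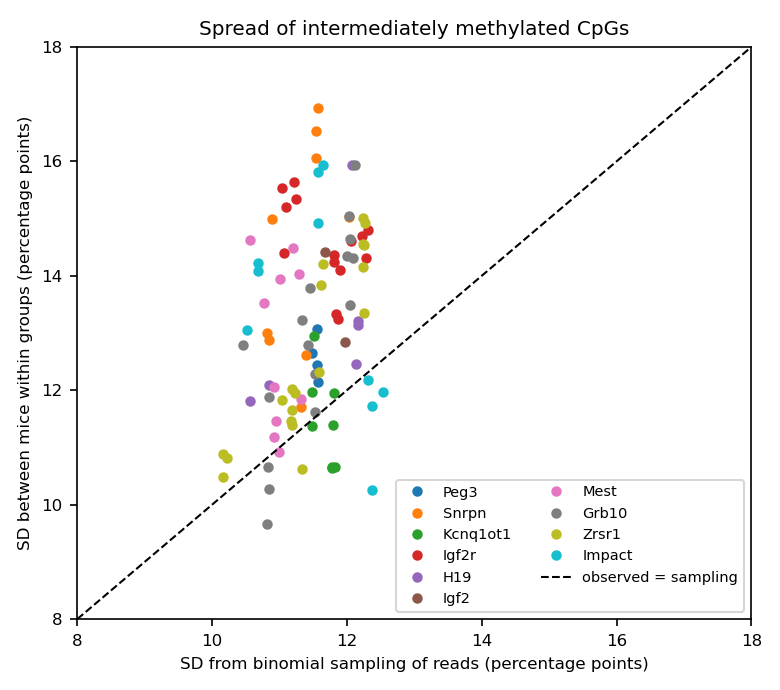
SD between mice within diet groups (y axis, percentage points) against the SD that binomial sampling of the reads gives (x axis, percentage points) for the 98 cytosines, coloured by locus, with a dashed line where both are equal. Of the points, 14 lie under the line, and the Snrpn points reach 16.9.

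Values of neighbouring cytosines at the imprinted loci, taken from the same read end, were correlated over the mice far more closely than those of neighbours elsewhere. Pairs of adjacent intermediate cytosines covered by the same read end (the 50 bases read from a given MspI cut) were compared by the correlation of their deviations from the group means over the mice. The 65 pairs of the 10 loci had a median r of 0.923 (quartiles 0.825 and 0.951), and r was above 0.8 in 50 of them (76.9%). The 5026 pairs outside all listed imprinted loci had a median r of 0.441, with 6.98% above 0.8. The 141 pairs of the further imprinted loci resembled the members, with a median of 0.918. These are descriptions over pairs that share reads, mice and libraries. Because a pair shares reads, its r includes read sampling common to both cytosines, which was not separated from differences between mice.

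The gap was seen at each distance: pairs 1 to 10 bp apart had a median r of 0.916 at the 10 loci and 0.508 elsewhere, pairs 11 to 20 bp apart 0.931 and 0.470, and pairs 21 to 50 bp apart 0.879 and 0.370. The share of mice with the same number of reads at both cytosines was alike, with a median of 94.1% at the 10 loci and 89.7% elsewhere. The typical difference between neighbours in a mouse was 3.35 percentage points at the 10 loci, compared with 10.5 elsewhere. Levels of 2 neighbours were often identical: the median difference was 0 at Peg3, Kcnq1ot1, Zrsr1 and Impact.

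**Figure D3:**
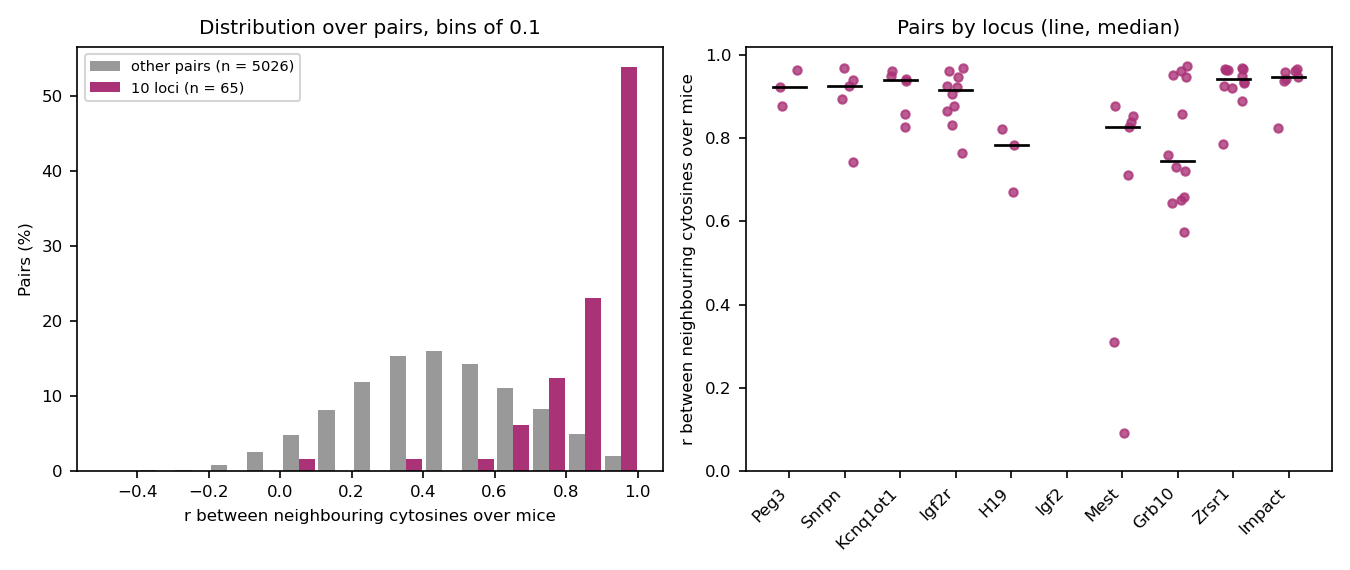
Correlation over mice (r) of neighbouring intermediate cytosines on the same read end: left, percent of pairs in bins of 0.1 for the 10 loci (n = 65) and for pairs outside all listed imprinted loci (n = 5026), and right, each pair by locus with the median as a line. Most member pairs lie above 0.8, and the lowest, near 0.09, belongs to Mest. Igf2 has no pair.

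By locus the median r was 0.948 at Impact, 0.943 at Zrsr1, 0.941 at Kcnq1ot1, 0.926 at Snrpn, 0.923 at Peg3 and 0.916 at Igf2r. Mest (0.826), H19 (0.784) and Grb10 (0.746) were lower, and at Mest and Grb10 the clusters of the same gene differed. The 3 pairs of Mest cluster 1 had r of 0.712, 0.310 and 0.0901, the last between cytosines only 2 bp apart with means of 36.3% and 51.5%, while the 4 pairs of Mest cluster 2 had r from 0.826 to 0.879. Likewise, the 5 pairs of Grb10 cluster 1 had r from 0.858 to 0.973 and the 7 pairs of Grb10 cluster 2 r from 0.574 to 0.761. Mest cluster 1 and Grb10 cluster 2 therefore had a mean near 50% but no pair with r above 0.8, unlike every other cluster. The lowest pairs of Igf2r cluster 2 (0.765), the H19 cluster (0.784) and Zrsr1 cluster 3 (0.786) were also below 0.8. At H19 the pair inside the transcript, with means of 62.0% and 51.5%, had an r of 0.672.

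When the cytosines of a cluster were averaged for each mouse, the median SD between mice was larger for the clusters of the 10 loci than for all clusters. The SD within groups had a median of 11.1 percentage points over the 14 clusters, against 8.71 over all 1829, although they held more cytosines (a median of 6 against 3), and 4 of the 14 (Grb10 cluster 2, Zrsr1 cluster 1, Mest cluster 2 and Kcnq1ot1) were below that of all clusters. Igf2r cluster 1 (SD 14.4), Grb10 cluster 1 (14.2) and Zrsr1 cluster 2 (14.1) varied most, and Grb10 cluster 2 (6.96), Zrsr1 cluster 1 (7.28) and Mest cluster 2 (8.26) least. The most variable clusters named each rested on 1 read end, with median reads of 17, 19 and 18. Those that varied least rested on 2, 4 and 2 read ends, with median reads of 23, 22 and 23.5. Cytosines on the same read end share reads, and the part of read sampling in this order was not tested. The clusters of the 10 loci were not tested against all clusters. Mice with fewer reads deviated more over the 98 cytosines: the root mean square deviation of a mouse, 8.41 to 18.7 percentage points, correlated with that from read sampling (Pearson's r = 0.466, permutation p = 0.003; Spearman's rho = 0.515, permutation p = 0.0009; r = 0.445 without the 2 mice farthest from the median; 40 mice).

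The cytosines on both strands of a CpG are read from different DNA strands of the library. There were 10 such CpGs in the loci, 6 of them intermediate on both strands. At the 2 Kcnq1ot1 CpGs the strands differed by 2.39 and 1.53 percentage points, at Igf2r cluster 2 by 1.73 and at Mest cluster 2 by 2.19, all less than the spread between mice (permutation p from 0.405 to 0.604). At Zrsr1 cluster 1 the plus strand was 4.39 points lower (permutation p = 0.1). At the Impact CpG (position 13131689) the plus strand was at 40.3% and the minus strand at 49.3%, a difference of -9.02 that was negative in 22 of 34 mice (permutation p = 0.00101) but did not pass after adjustment over all 22696 CpGs read on both strands (FDR = 0.0868). Of the 4 CpGs that were not intermediate on both strands, an Igf2r CpG (position 12944191) was at 78.9% on the plus and 87.2% on the minus strand, a difference of -8.27 (permutation p = 0.00296, FDR = 0.175), and the 3 others, at Igf2 and Grb10, had permutation p of 0.0543 or more. Over the 893 intermediate CpGs of the table read on both strands, the median difference was 2.71 points, and 5.38% differed by at least as much as the Impact CpG.

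The effect of the diets on each cytosine was tested cytosine by cytosine over the whole table, with the false discovery rate (FDR) over all cytosines tested. The comparison of maternal diets within each post-weaning diet asks whether nutrition before weaning leaves a mark in adult liver, and that of post-weaning diets within each maternal diet asks the same of later nutrition. No cytosine of the 10 loci passed an FDR of 5% in any of the 4 comparisons. In animals fed HF after weaning, 0 of 198 were called for maternal diet against 0% of the table, and 9 had an unadjusted p below 0.05 against 3.63%. Among animals fed LF after weaning, 0 of 199 were called against 0%, and 11 had an unadjusted p below 0.05 against 3.82%. For post-weaning diet in animals born from LF fed dams, 0 of 196 were called against 0.000562% (2 cytosines), and 5 had an unadjusted p below 0.05 against 3.88%. In those born from HF fed dams, 0 of 197 were called against 0.000825% (3 cytosines), and 8 had an unadjusted p below 0.05 against 3.97%. The smallest FDR of a member was 0.810. Read against the table, these shares, 2.55% to 5.53%, lay near the background.

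The differences of the 98 intermediate cytosines ran from -17.1 to 9.58 percentage points for maternal diet on HF, from -16.2 to 10.9 for maternal diet on LF, from -17.5 to 15.0 for post-weaning diet from LF fed dams and from -13.2 to 11.6 for post-weaning diet from HF fed dams. Their median absolute difference was 3.47, 4.39, 4.30 and 4.19 percentage points for maternal diet on HF, maternal diet on LF, post-weaning diet from LF fed dams and post-weaning diet from HF fed dams. Over all intermediate cytosines of the table these values were 4.18, 4.14, 4.37 and 4.22. By sign, 66 of the 98 were lower in animals born from HF fed dams when fed LF after weaning (median difference -2.71, and 0.596 over all intermediate cytosines). In animals born from LF fed dams, 68 of the 98 were lower when fed HF after weaning (median -3.16, and 0.0710 over all). In the other 2 comparisons 51 and 53 were lower, with medians of -0.107 for maternal diet on HF and -0.817 for post-weaning diet from HF fed dams, where all intermediate cytosines had medians of -0.913 and -1.45. Both of the more uneven comparisons share the LF-LF group, and the cytosines share reads and mice. The median standard error of a difference was 5.70 to 6.49 points for a single cytosine, and the smallest FDR of any cytosine of the 10 loci was 0.810.

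Several of the lowest p-values fell outside the intermediate class. Upstream of Mest, a cytosine in an exon of Gm14528 (chr6, position 30670099) was at 85.2% ± 8.73 (SD, n = 7) in LF-HF and 98.8% ± 2.68 (n = 9) in LF-LF animals (exact permutation p = 0.000262, FDR = 0.810), and a neighbour (position 30670084) was at 86.3% ± 6.82 (n = 9) in HF-HF and 94.4% ± 4.56 (n = 10) in HF-LF animals (exact permutation p = 0.00864, FDR = 0.812). In the mostly unmethylated Igf2 region, the cytosine at position 149845816 was at 10.8% ± 7.26 in HF-LF and 2.71% ± 3.73 in LF-LF animals (n = 10 each, exact permutation p = 0.00567, FDR = 0.821). Just upstream of Igf2r, inside the span of cluster 2 but below its lower limit (position 12962588, mean 33.1%), methylation was 25.3% ± 5.80 (n = 9) in HF-HF and 45.2% ± 19.4 (n = 8) in LF-HF animals (exact permutation p = 0.00132, FDR = 0.815). At Grb10, the cytosine at position 11937846 was at 7.92% ± 4.27 (n = 8) in HF-HF and 1.72% ± 2.81 (n = 9) in LF-HF animals (exact permutation p = 0.00415, FDR = 0.815).

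Of the intermediate cytosines, that of Kcnq1ot1 at position 150481280 was at 48.6% ± 7.21 in HF-LF and 59.4% ± 9.42 in LF-LF animals (n = 9 each, exact permutation p = 0.0161, FDR = 0.821). At Zrsr1 (position 22873934, in cluster 3) the level was 44.8% ± 12.4 (n = 9) in HF-HF and 61.8% ± 16.6 (n = 10) in LF-HF animals (exact permutation p = 0.0241, FDR = 0.815). At Impact (position 13131689) it was 37.1% ± 9.57 (n = 10) in HF-LF and 47.1% ± 10.7 (n = 9) in LF-LF animals (exact permutation p = 0.0439, FDR = 0.821). No cytosine of Peg3, Snrpn or H19 had an unadjusted p below 0.05 in any comparison.

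Averaged over a cluster, no difference between diets passed the FDR. The 14 clusters were tested together with all 1829 clusters of the table, and 0 passed an FDR of 5% in any comparison, against 0% of all clusters for both maternal comparisons and for post-weaning diet from LF fed dams, and 0.109% (2 clusters) for post-weaning diet from HF fed dams. An unadjusted p below 0.05 was found for 1 of 14 for maternal diet on HF (5.47% of all clusters), 0 of 14 for maternal diet on LF (6.72%), 1 of 14 for post-weaning diet from LF fed dams (6.56%) and 2 of 14 for post-weaning diet from HF fed dams (8.8%). The interaction of both diets was called for 0 clusters at an FDR of 5% (0% of all) and had an unadjusted p below 0.05 for 1 of 14 (5.74%). The 95% intervals of the differences had a median distance of 9.86 to 11.6 points on each side, so in a typical cluster smaller differences could not be told from 0 even before adjustment. The median absolute difference of the 14 clusters was 2.23 points for maternal diet on HF, 3.73 for maternal diet on LF, 4.59 for post-weaning diet from LF fed dams and 4.08 for post-weaning diet from HF fed dams, and over all clusters it was 2.86, 2.77, 3.08 and 2.998 in the same order.

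**Figure D4:**
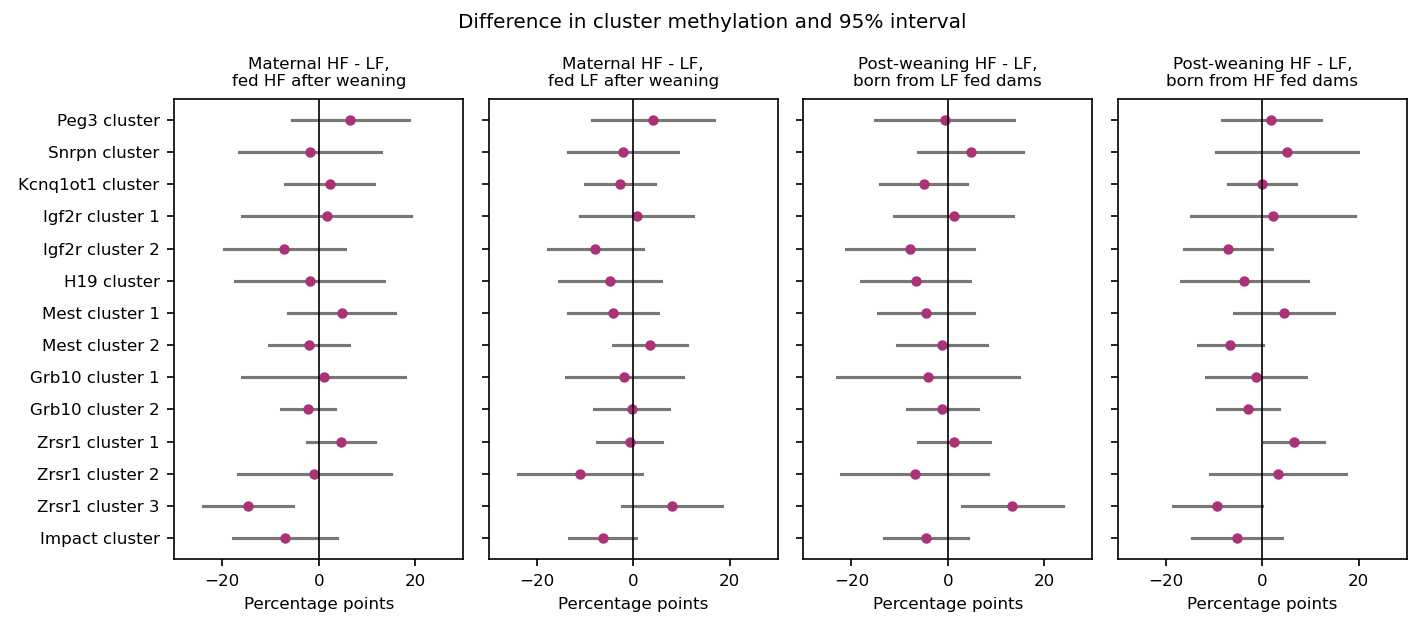
Difference in cluster methylation (percentage points, HF minus LF) with its 95% interval for the 14 clusters in the 4 comparisons, each panel naming the diet compared and the diet held fixed. Most intervals include 0, and Zrsr1 cluster 3 has the largest differences, -14.7 for maternal diet on HF and 13.4 for post-weaning diet from LF fed dams.

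The clusters with an unadjusted p below 0.05 in these tests were clusters 1 and 3 of Zrsr1. Mest cluster 2 was close to that limit: HF-HF animals were at 46.8% ± 5.36 and HF-LF animals at 53.5% ± 8.56, a difference of -6.64 points (n = 10 each, exact permutation p = 0.0486, p = 0.0521 in the test over all clusters, FDR = 0.567). In Zrsr1 cluster 3, in the Zrsr1 coding exon, LF-LF animals ranged from 28.8% through a median of 47.2% to 66.8%, and LF-HF animals from 40.1% through 61.6% to 79.6%. HF-LF animals ranged from 42.7% through 55.0% to 85.9%, and HF-HF animals from 37.5% through 46.0% to 59.4%. The groups overlapped throughout, with LF-HF the highest and HF-HF the lowest by mean. The HF-HF mean of 46.7% ± 7.08 was 14.7 points below the LF-HF mean of 61.4% ± 12.1 (SD, n = 10 each, exact permutation p = 0.00375, FDR = 0.651). LF-HF in turn was 13.4 points above LF-LF (48.0% ± 10.2, exact permutation p = 0.0152, FDR = 0.551), and HF-HF was 9.33 points below HF-LF (56.0% ± 11.9, exact permutation p = 0.0321, FDR = 0.552). The interaction was -22.7 ± 6.65 points (SE, p = 0.00160, FDR = 0.427), and none of these passed the FDR. Leaving out each mouse in turn kept the interaction p between 0.000394 and 0.00313, and the maternal p on HF between 0.000487 and 0.00811. For post-weaning diet from HF fed dams it ranged from 0.0240 to 0.0826 and was 0.05 or more for 14 of the 20 mice, the highest without mouse 122 of the HF-HF group. Without mouse 228 of the HF-LF group, which was at 85.9%, this difference was -6.01 points (p = 0.0628 by the same test). With all mice, a test that allows unequal variances gave p = 0.0506 and reads summed over the cluster gave -9.48 points (p = 0.0535).

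These values depend on mice with missing cytosines. In 5 animals only 2 of the 4 cytosines of Zrsr1 cluster 3 were measured, among them the 2 highest LF-HF animals (mice 208 and 209, both at 79.6%, with 11 reads at each cytosine) and the highest HF-LF animal (mouse 228, with 17 reads at each). In the 35 mice with all 4 cytosines, HF-HF animals were at 47.0% ± 7.41 (n = 9) and LF-HF animals at 56.8% ± 8.34 (n = 8), a difference of -9.76 points (exact permutation p = 0.0248). The difference between LF-HF and LF-LF animals was then 9.30 points (exact permutation p = 0.0665), that between HF-HF and HF-LF animals -5.64 points (exact permutation p = 0.0938), and the interaction -14.9 points (p = 0.0121). All 4 were thus smaller than with every mouse, and 2 of them no longer had an unadjusted p below 0.05.

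The other Zrsr1 clusters did not follow the order of cluster 3. In cluster 1, over the transcript start, HF-HF animals were at 53.5% ± 8.56 and HF-LF animals at 46.9% ± 3.63, a difference of 6.62 points in the opposite direction to that of cluster 3 (n = 10 each, exact permutation p = 0.0367, FDR = 0.538), and leaving out single mice raised this p to 0.05 or more for 12 of 20, up to 0.0714 without mouse 173 of the HF-HF group. In mice with all 9 cytosines of cluster 1 (n = 8 each) the difference was 6.19 points (exact permutation p = 0.0538). With all mice, limma gave p = 0.0630 and Wilcoxon's rank-sum test p = 0.162. Gaps of up to 1000 bp join clusters 1 and 2, and the difference over the joined cluster was 4.70 points (p = 0.159). The interaction in cluster 1 was 5.36 points (p = 0.252) and in cluster 2 it was 10.1 points (p = 0.313), both opposite in sign to cluster 3. Whether the clusters of Zrsr1 differ in their response was not tested.

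For the remaining loci the group means of a cluster lay up to 15.0 points apart. This widest gap, between LF-LF and HF-HF animals at Igf2r cluster 2, was slightly above the 14.7 points at Zrsr1 cluster 3. None of the 4 comparisons sets LF-LF against HF-HF animals, so this gap was not tested. The means of the Igf2r cluster 2 were 56.7% in LF-LF, 48.8% in LF-HF, 48.8% in HF-LF and 41.7% in HF-HF animals, and none of the 4 differences had a p below 0.05. Those of the Impact cluster were 52.6%, 48.0%, 46.2% and 40.9% in the same order, with an interval of -13.4 to 0.600 points for maternal diet on LF. At Igf2r cluster 1 the 4 means lay between 39.7% and 42.5%, at Grb10 cluster 2 between 51.5% and 54.9%, and at Kcnq1ot1 between 45.4% and 50.4%, where the intervals for maternal diet were -6.90 to 11.4 points on HF and -9.92 to 4.48 points on LF.

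**Figure D5:**
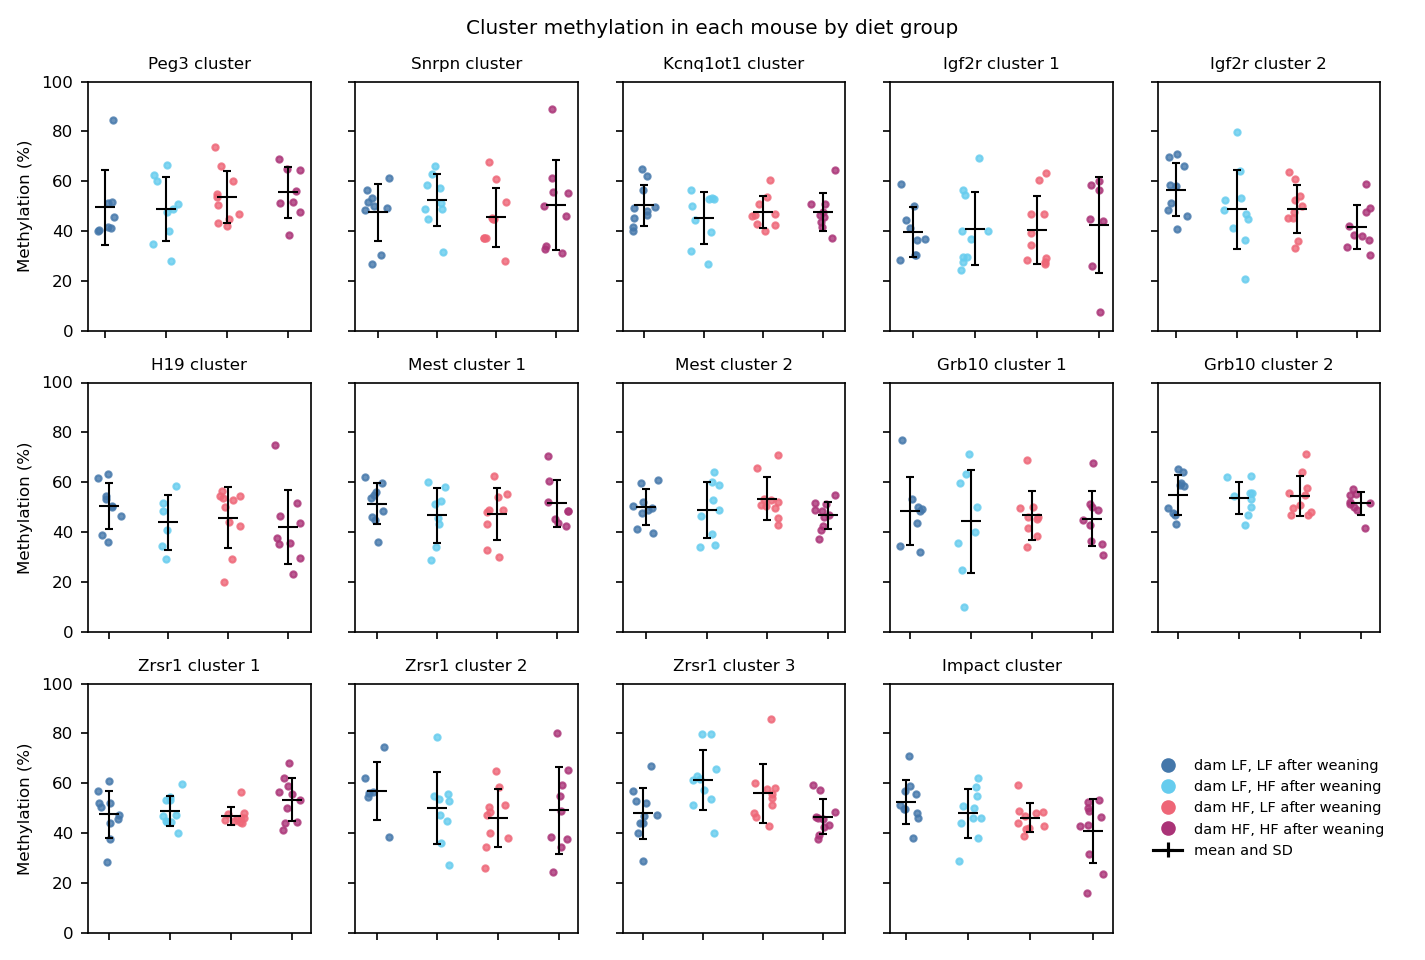
Methylation (%) of the 14 clusters in each mouse (points) by diet group (colours), with the mean and SD in black. Mice of all groups overlap in every cluster, and single animals reach 88.9% at Snrpn and 7.69% at Igf2r cluster 1.

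The spread between mice was not found to differ between the diet groups. The Brown-Forsythe test called 0 of 14 clusters at an FDR of 5% (0% of all clusters), and 0 of 14 had an unadjusted p below 0.05 (2.95%). Over the 98 cytosines the median SD was 12.6 in LF-LF, 13.3 in LF-HF, 11.5 in HF-LF and 12.9 in HF-HF animals, and over all intermediate cytosines it was 12.6, 12.5, 11.7 and 12.5 in the same order. The lowest value fell in HF-LF animals in both sets. The shallowest mouse had 6717178 CpG reads in HF-LF, against 4272932 in LF-LF, 3488092 in LF-HF and 2969907 in HF-HF animals. The part of depth in these SDs was not tested. The smallest member p was that of Zrsr1 cluster 1 (p = 0.0764), whose SD was 9.41 in LF-LF and 3.63 in HF-LF animals with 10 mice each. Its lowest and highest LF-LF animals (mice 210 and 133) had values at only 5 and 6 of the 9 cytosines. Mouse 227 of the HF-LF group also had values at only 5.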

How the data were processed

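RRBS libraries of 40 livers were analysed. The authors cut DNA with MspI, selected fragments by size, treated them with bisulfite, sequenced single reads of 50 bases and aligned them to mm9 with Bismark (version not given in the sources used here). The tables the authors deposited give, per mouse and cytosine, 2 raw read counts (methylated and total) and a fraction made from them; totals under 10 are missing. There were 0 columns of no mapped mouse. Depth ran from 2969907 to 23345592 CpG reads in a mouse. Reads carried no molecular identifiers, so sampling errors cover counting alone.

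Percent methylation was methylated over all reads. All 400298 deposited rows, each with values in at least 33 mice, were used. A minimum of 36 mice leaves no intermediate cytosine at Peg3, Kcnq1ot1 and Igf2, and this choice was made after seeing that. The members and lists were chosen with earlier results of these data known. Genes came from GENCODE vM1 on NCBIM37. Kcnq1ot1 was placed by an exact match of its RefSeq promoter (GRCm38.p6) and searched only within 5 kb of its start. A cluster value was the mean over cytosines of a mouse's percent minus the cytosine's mean, plus the cluster mean. This removes differences in mean level between cytosines, but a mouse with missing cytosines still rests on the others alone. Student's t-tests, the interaction contrast and the Brown-Forsythe test were adjusted by Benjamini-Hochberg over the table (Python 3.11.15, scipy 1.17.1). Exact permutation p-values, two-sided, are given for single cytosines and clusters, and other permutation tests drew 100000 resamples. Alternatives included Welch's, Wilcoxon's and limma's (3.58.1) tests, other read minimums, level limits and gaps. The tests were checked on simulated data. By rule, the text names the clusters and, for each locus, the cytosine with the smallest p in any comparison and the intermediate ones with the smallest and largest SD, those above p = 0.05 or within the given range as a group.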

Additional observations from a re-analysis of the deposited data

Results flagged for a closer look

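In 6 of the 56 combinations of a cluster and a diet group that were checked, a single mouse lay far from the rest of its group. The combinations share mice and libraries, and the rate that chance would give was not computed. At the Peg3 cluster, mouse 13 of the LF-LF group was at 84.6%, with the next animal at 51.8%. At Grb10 cluster 1, mouse 15 of the LF-LF group was at 76.9% (next 53.3%) and mouse 127 of the HF-LF group at 68.9% (next 50%). In the HF-LF group, mouse 228 was at 59.4% at the Impact cluster (next 49.0%) and at 85.9% at Zrsr1 cluster 3 (next 59.9%), and mouse 128 was at 56.5% at Zrsr1 cluster 1 (next 48.1%). All 6 were the highest of their group. Mice 13 and 228 had the fewest reads of their groups (4272932 and 6717178), and at Zrsr1 cluster 3 mouse 228 had a value at only 2 of the 4 cytosines. The part of depth in these values was not tested.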

How the results depend on the processing

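No paired analysis was possible because the replicate numbers were given in accession order and pair no mice, and litters are not named, so littermates on both post-weaning diets could not be matched. No cytosine of the 10 loci passed an FDR of 5% under the alternatives that gave them a value. Over the whole table, the calls for post-weaning diet from LF fed dams (2 cytosines) fell to 0 with limma, Wilcoxon's test, at least 20 reads in 36 mice and values in all 40 mice. From HF fed dams (3 cytosines) they fell to 0 with Welch's and Wilcoxon's tests and at least 20 reads in 36 mice, and to 1 with values in all 40 mice, where maternal diet on LF gained 1. Of clusters, limma called 1 from LF fed dams and 5 from HF fed dams, where Wilcoxon's test and at least 20 reads in 36 mice called 0, limits of 40% to 60% called 1 and limits of 30% to 70% called 4 (2 in the report). For maternal diet on LF, 1 cluster was called with summed reads, with limits of 30% to 70% and with at least 36 mice. With at least 36 mice the 10 loci kept 36 intermediate cytosines in 6 clusters, with at least 20 reads in 36 mice 0 clusters, and in gene bodies alone 61 cytosines, because fewer cytosines enter. With at least 20 reads per value the median SD of the intermediate cytosines was 11.2. The median r of neighbours ranged from 0.898 to 0.925 at the 10 loci over 5 alternatives added after seeing the data. In the mice with every cytosine of Zrsr1 cluster 3, an alternative added after seeing the data, its 3 differences were smaller and 2 no longer had an unadjusted p below 0.05. Without the mouse with the fewest reads of each group, the post-weaning difference from HF fed dams at Zrsr1 cluster 3 was -5.18 (p = 0.109), against -9.33.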
